A study of Homo sapiens with 36 samples.

Results

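Propionate (PRO) enters liver cells through a proton-linked monocarboxylate carrier, is activated to propionyl-CoA in the mitochondrion and is converted to succinyl-CoA. The 10 genes of this route were followed here in HepG2 cells, an established human hepatoma line. They were SLC16A1, which encodes the carrier MCT1, the acyl-CoA synthetases ACSS1 and ACSS3, the propionyl-CoA carboxylase subunits PCCA and PCCB, the epimerase MCEE, the mutase MUT (the table's symbol for MMUT), and the cobalamin-handling genes MMAA, MMAB and MMADHC. They were chosen by name for their role in propionate metabolism and make up 10 of the 18932 genes in the table. Counts of reads per gene were available for 36 RNA-seq samples. Cells in serum-free DMEM received vehicle (Ctrl), 70 µM PRO, 50 µM docosahexaenoic acid (DHA), 20 µM protocatechuic acid (PCA), DHA + PRO or DHA + PCA for 6 h or 24 h, in 3 independent cultures for each of the 12 groups. DHA was given from ethanol as a complex with bovine serum albumin, PCA from acidified DMSO and PRO from water, Ctrl cells received albumin, ethanol and DMSO, and each sample pooled the RNA of 3 replicates of 1 culture experiment. What the PRO and PCA cells received of the other solvents and albumin is not given in the sources used here. Every group is the same transformed line, so no group stands for primary hepatocytes.

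Propionate is a main product of bacterial fermentation in the gut, and the liver takes up most of what reaches the portal vein. In the mitochondrion, propionyl-CoA carboxylase, a biotin enzyme of alpha and beta subunits, forms D-methylmalonyl-CoA, the epimerase turns it into the L form, and methylmalonyl-CoA mutase rearranges this to succinyl-CoA, an intermediate of the citric acid cycle. The mutase needs adenosylcobalamin, which MMAB makes from cobalamin that MMADHC directs to the mitochondrion and that MMAA helps to load on the mutase. The same route receives propionyl-CoA from valine, isoleucine, methionine, threonine and odd-chain fatty acids, and its inherited defects are the propionic and methylmalonic acidemias.

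MMAB is transcribed away from MVK, which encodes mevalonate kinase of cholesterol synthesis, and the starts of both genes in the table enclose 141 bases (hg19). The part of this stretch that lies outside annotated exons, 114 bases at chr12:110011386-110011499, is shown on the plus strand because the values of both genes are set side by side further on. Capitals mark CCAAT, here read as its reverse complement, and TCACNCCA, a shorter form of a sterol regulatory element that was chosen after this sequence had been seen.
MMAB to MVK: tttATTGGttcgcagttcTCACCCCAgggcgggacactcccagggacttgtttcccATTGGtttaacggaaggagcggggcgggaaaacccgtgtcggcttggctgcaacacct
The complete element searched for, TCACNCCAC, was in 0 of the 10 windows of 250 bases upstream of the genes' starts and in 0.993% of the 18923 such windows that could be read. TCACNCCA was in the window of MMAB alone and in 3.29% of all windows, and CCAAT was in those of MMAB, with 5 matches, and MMADHC, with 1, and in 32.7% of all windows, with both strands searched and overlaps with the complete element counted. These matches describe letters in the sequence, and no binding was measured.

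Samples held between 4659744 and 42326734 counts in total (median 7034006.5), and replicate 2 of DHA + PRO at 24 h was the deepest, with 6.22 times the median of the other 24 h samples. Of the hepatocyte markers looked for, 8 of 8 were present in every sample, among them ALB, and their summed level lay between 50146 and 66912 CPM (counts scaled to the effective size of the library). Among markers of other cells, PTPRC and CD3E were at or below 0.233 CPM, the 4 endothelial markers summed to at most 1.36 CPM and the 4 fibroblast markers to at most 28.1 CPM. LYZ, on the leukocyte list, lay between 744 and 2546 CPM. The library numbers in the labels fall into an SM18 and an SM19 series. Replicate 3 of every group and replicate 2 of DHA + PRO at 6 h were in the latter. Log2 differences within each series stand beside results of SLC16A1, ACSS1, ACSS3, PCCB and MMAB below.

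Levels of the genes were compared as RPKM, which is CPM divided by the counted length in kilobases, as means ± SD over the 36 samples. MMADHC was highest with 76.7 ± 6.55 RPKM, followed by SLC16A1 with 58.9 ± 5.80 and PCCB with 33.5 ± 3.03. ACSS3 (25.5 ± 2.80 RPKM) and MCEE (24.9 ± 3.59) came next and were not separated, since ACSS3 was the higher in 19 of 36 samples. ACSS1 (16.5 ± 5.56 RPKM) and MUT (15.2 ± 1.52) were close over both times together, with ACSS1 higher in 18 of 36 samples, but their order turned with time. In every group the mean of ACSS1 lay below that of MUT at 6 h and above it at 24 h. In Ctrl these means were 11.2 and 16.2 RPKM at 6 h, and 19.1 and 15.4 at 24 h. MMAB (11.7 ± 2.84 RPKM) exceeded PCCA (9.66 ± 1.41) in 27 of 36 samples, among them every sample at 24 h. MMAA was lowest with 0.595 ± 0.161 RPKM, on 9 to 155 counts per sample, so that its comparisons were the least precise. The subunits of the carboxylase thus differed in messenger level, with PCCB above PCCA, while the remaining neighbours in this order kept their order in at least 33 of 36 samples. The library kit does not mark strand. An annotated antisense transcript, MMADHC-DT, shares 24.3% of the annotated exon bases of MMADHC, so reads of both cannot be told apart there, and MVK shares 3.46% of those of MMAB and GGACT 3.76% of those of PCCA. These shares are over the exons of all annotated transcripts. How many of the shared bases lie within the counted lengths was not checked.

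**Figure D1:**
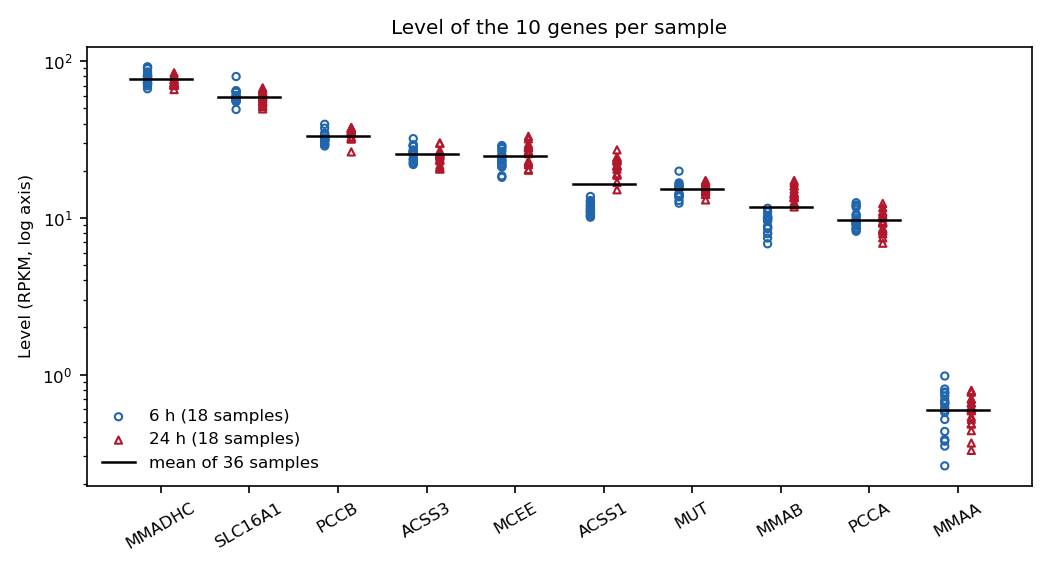
Level of each gene in RPKM (log axis) in every sample, with circles for 6 h, triangles for 24 h and a line at the mean of the 36 samples. MMADHC and SLC16A1 lie at the top, MMAA lies below 1 RPKM in every sample, and ACSS1 and MMAB have higher values at 24 h than at 6 h.

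No gene of its own route changed with PRO by the test across all genes. A gene was counted as changed when edgeR's quasi-likelihood F test gave a Benjamini-Hochberg adjusted p of at most 0.05 over all genes tested and its average log2 CPM was above 0, and all 10 genes entered every test. The test took samples as unpaired, although same-numbered samples may share a culture experiment. Results with the replicate number in the model are given at the end. In PRO against Ctrl, 0 of 10 genes passed at 6 h and 0 of 10 at 24 h, where 0% of all 11872 and 11893 genes tested passed. In DHA + PRO against DHA, 0 of 10 passed at either time (background 0% at both). When both pairs were combined, so that PRO and DHA + PRO were compared with Ctrl and DHA, 0 of 10 passed at 6 h (0%), at 24 h (0.00841%) and over both times together (0% of 12046 genes). At an unadjusted p of 0.05 the only gene of the route below the limit was ACSS3. It was below in DHA + PRO against DHA at 24 h, beside 527 of all 11893 genes tested. In the combined comparisons it was below at 24 h (beside 656 of 11893) and over both times (beside 364 of 12046). DESeq2's Wald test also called 0 of 10 in each of these comparisons, where a gene with no adjusted p is not a call, and it gave none for 7 of the genes in the combined comparison at 24 h. In bulk RNA, fewer cells that express a gene and less RNA per cell cannot be told apart.

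**Figure D2:**
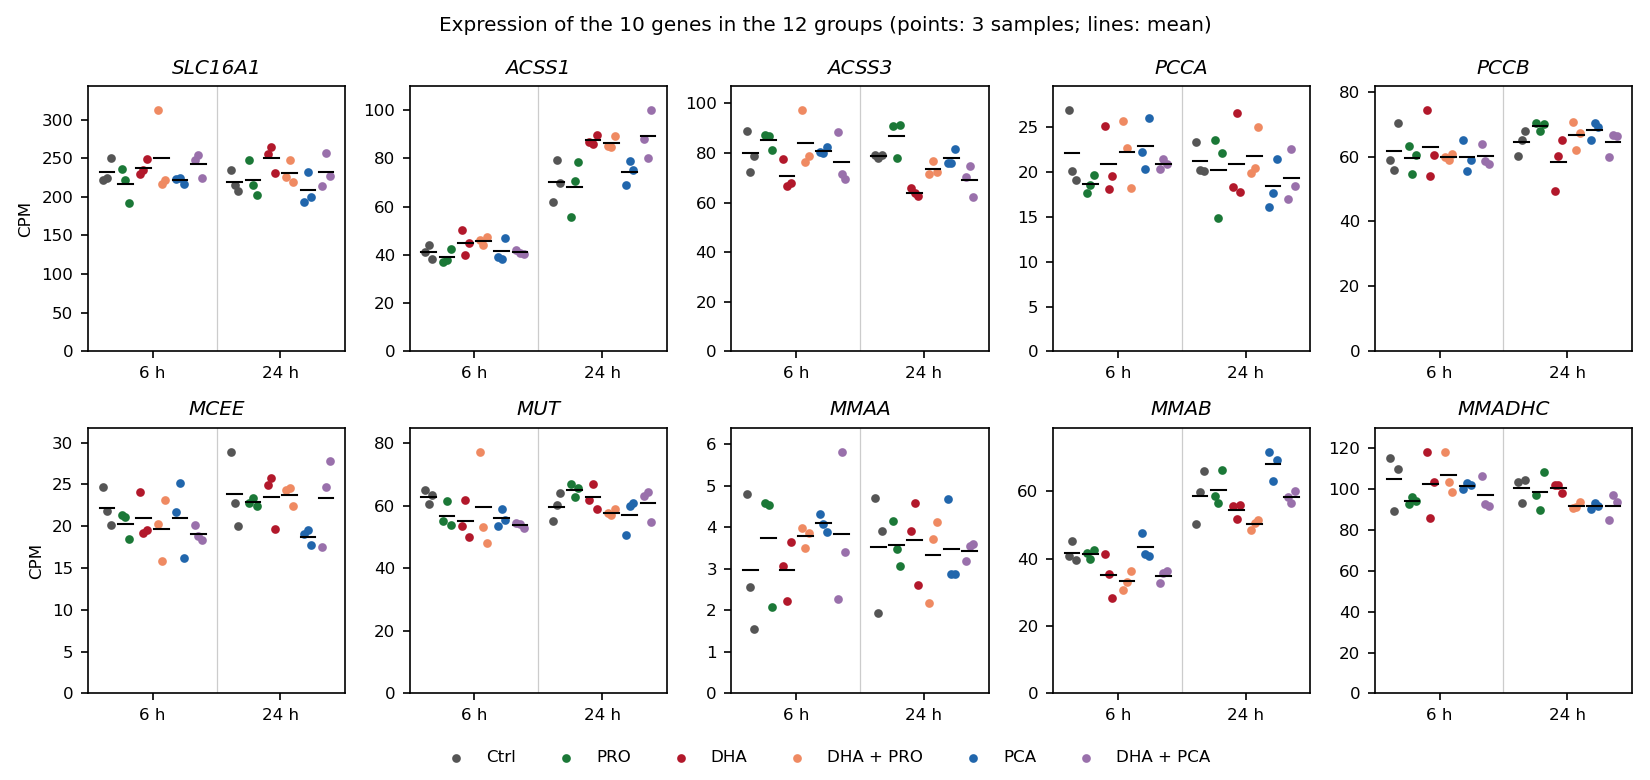
CPM of each gene in the 12 groups, with 6 h on the left and 24 h on the right of each panel, points for the 3 samples and lines for their mean, and axes starting at 0. The groups given PRO alone overlap Ctrl in every panel at both times, and ACSS1 and MMAB are higher at 24 h in all 6 treatments.

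The carrier SLC16A1 (chr1:113454470-113498975, minus strand) moves lactate, pyruvate and propionate with a proton. At 6 h its mean level ± SD was 232 ± 15.7 CPM in Ctrl, 217 ± 22.3 in PRO, 238 ± 10.3 in DHA, 250.1 ± 53.8 in DHA + PRO, 221 ± 4.56 in PCA and 242 ± 15.2 in DHA + PCA (n = 3 each). At 24 h it was 219.6 ± 13.6 CPM in Ctrl, 222 ± 22.8 in PRO, 250.2 ± 17.4 in DHA, 231 ± 14.6 in DHA + PRO, 209 ± 20.7 in PCA and 233 ± 22.3 in DHA + PCA. The highest single value, 312 CPM, belonged to the only SM18 sample of DHA + PRO at 6 h. Its SM19 samples lay at 217 and 221 CPM. With PRO at 6 h the log2 difference of SLC16A1 was 0.23 within the SM18 series and -0.28 within the SM19 series. The 95% interval of the change with PRO in the combined comparison was -12.6% to 11.9% at 6 h. At 24 h this interval was -12.7% to 6.26%.

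ACSS3 (chr12:81471809-81649582, plus strand), a mitochondrial synthetase that prefers propionate, had the lowest p with PRO in the combined comparisons. At 6 h its CPM was 88.8, 72.4 and 78.8 in replicates 1 to 3 of Ctrl and 87.2, 86.9 and 81.1 in those of PRO. It was 77.6, 66.5 and 67.7 in DHA and 97.2, 76.4 and 78.9 in DHA + PRO. The groups overlapped in both pairs at 6 h.
At 24 h the CPM of ACSS3 was 79.0, 78.1 and 79.2 in Ctrl and 90.9, 78.1 and 91.2 in PRO, with replicate 2 of PRO at the level of Ctrl. It was 65.6, 63.7 and 62.5 in DHA and 71.3, 76.8 and 72.2 in DHA + PRO, which did not overlap. Samples of DHA + PRO and DHA at 24 h were apart in this way for 4 of the 10 genes, ACSS3 with DHA + PRO above and MUT, MMAB and MMADHC with DHA + PRO below, beside 10.7% of all 11893 genes tested. For each of these genes the exact permutation test of 3 against 3 samples gave its smallest possible p of 0.1, and none passed across genes. The log2 fold change with PRO in the combined comparison was 0.17 at 6 h (SE 0.085, adjusted p = 0.99979 by edgeR) and 0.17 at 24 h (SE 0.063, adjusted p = 0.775 by edgeR). Over both times it was 0.17 (SE 0.052, 95% interval 0.066 to 0.28), with an unadjusted p of 0.00221 and an adjusted p = 0.999 by edgeR. An exact two-sided permutation test of ACSS3 alone, with PRO labels exchanged within each pair of groups and time, gave p = 0.065 at 6 h, 0.015 at 24 h and 0.000913 over both times. This test took no account of the other genes, and ACSS3 was singled out from 10 genes after its values had been seen. Within the SM18 and SM19 series the log2 difference was 0.28 and 0.12 at 6 h, and 0.15 and 0.21 at 24 h. The difference with PRO had the same direction at both times and in both series but did not pass the test across genes.

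ACSS1 (chr20:24986866-25038818, minus strand), the mitochondrial acetyl-CoA synthetase, which also accepts propionate, overlapped between the groups with and without PRO. The means ± SD at 6 h were 41.1 ± 2.92 CPM in Ctrl, 39.1 ± 2.94 in PRO, 45.0 ± 5.28 in DHA, 45.8 ± 1.78 in DHA + PRO, 41.5 ± 4.96 in PCA and 41.0 ± 0.890 in DHA + PCA. At 24 h they were 70.3 ± 8.64 CPM in Ctrl, 68.1 ± 11.5 in PRO, 87.5 ± 1.92 in DHA, 86.2 ± 2.54 in DHA + PRO, 74.3 ± 5.02 in PCA and 89.4 ± 9.95 in DHA + PCA. The 95% interval of the change with PRO at 24 h ran from -13.6% to 9.10%.

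The carboxylase subunits showed no change that passed with PRO. PCCA (chr13:100741269-101182691, plus strand) encodes the biotin-carrying alpha subunit. Its mean ± SD at 6 h was 22.05 ± 4.205 CPM in Ctrl, 18.6 ± 0.994 in PRO, 20.9 ± 3.70 in DHA, 22.2 ± 3.75 in DHA + PRO, 22.8 ± 2.89 in PCA and 20.9 ± 0.567 in DHA + PCA. At 24 h it was 21.2 ± 1.83 CPM in Ctrl, 20.2 ± 4.68 in PRO, 20.9 ± 4.92 in DHA, 21.8 ± 2.79 in DHA + PRO, 18.4 ± 2.78 in PCA and 19.3 ± 2.897 in DHA + PCA, and the 95% interval of the change with PRO in the combined comparison ran from -17.6% to 18.6%. PCCB (chr3:135969167-136049013, plus strand) encodes the beta subunit, whose mean ± SD at 6 h was 61.6 ± 7.57 CPM in Ctrl, 59.4 ± 4.30 in PRO, 62.9 ± 10.4 in DHA, 59.8 ± 0.909 in DHA + PRO, 60.0 ± 4.86 in PCA and 60.0 ± 3.46 in DHA + PCA. At 24 h the level of PCCB was 60.1, 65.1 and 68.0 CPM in replicates 1 to 3 of Ctrl, 70.3, 67.8 and 69.95 in PRO, 49.5, 60.3 and 65.1 in DHA and 70.5, 61.9 and 67.3 in DHA + PRO, with overlap in both pairs. Its log2 fold change with PRO at 24 h was 0.14 (SE 0.071, 95% interval -0.0078 to 0.29, adjusted p = 0.885 by edgeR), with p = 0.035 in the exact permutation test of this gene alone. That test took no account of the other genes of the route, and PCCB was singled out after its values had been seen. Within the SM18 and SM19 series the log2 difference at 24 h was 0.21 and 0.045. At 6 h the log2 fold change of PCCB with PRO was -0.065 (95% interval -0.25 to 0.12). In PCA and DHA + PCA at 24 h PCCB stood at 68.2 ± 2.85 and 64.3 ± 3.87 CPM.

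MCEE (chr2:71336806-71357394, minus strand), the methylmalonyl-CoA epimerase, had means ± SD at 6 h of 22.2 ± 2.32 CPM in Ctrl, 20.3 ± 1.56 in PRO, 20.9 ± 2.76 in DHA, 19.7 ± 3.70 in DHA + PRO, 21.0 ± 4.56 in PCA and 19.1 ± 0.911 in DHA + PCA. At 24 h they were 23.9 ± 4.50 CPM in Ctrl, 22.9 ± 0.474 in PRO, 23.5 ± 3.30 in DHA, 23.8 ± 1.21 in DHA + PRO, 18.8 ± 0.912 in PCA and 23.3 ± 5.27 in DHA + PCA, and the interval of the change with PRO ran from -15.9% to 15.3%. MUT (chr6:49398073-49431041, minus strand), the mutase that yields succinyl-CoA, had means ± SD at 6 h of 63.0 ± 2.24 CPM in Ctrl, 56.9 ± 4.11 in PRO, 55.2 ± 6.11 in DHA, 59.5 ± 15.5 in DHA + PRO, 56.1 ± 2.73 in PCA and 53.9 ± 0.774 in DHA + PCA. At 24 h they were 59.8 ± 4.55 CPM in Ctrl, 65.2 ± 2.12 in PRO, 62.7 ± 4.08 in DHA, 57.9 ± 0.909 in DHA + PRO, 57.2 ± 5.74 in PCA and 60.8 ± 5.18 in DHA + PCA. The log2 fold change of MUT with PRO at 24 h was 0.12 without DHA and -0.12 with it, and the difference between both, -0.24 (95% interval -0.53 to 0.049), did not pass (adjusted p = 0.955 by edgeR). The interval of its change in the combined comparison at 24 h ran from -9.62% to 10.4%.

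Of the cobalamin genes, MMADHC (chr2:150426147-150444330, minus strand), which steers cobalamin to its mitochondrial or cytosolic form, had means ± SD at 6 h of 105 ± 13.6 CPM in Ctrl, 94.2 ± 1.71 in PRO, 102 ± 16.2 in DHA, 107 ± 10.1 in DHA + PRO, 102 ± 1.39 in PCA and 96.9 ± 8.09 in DHA + PCA. At 24 h they were 100.4 ± 6.05 CPM in Ctrl, 98.5 ± 9.30 in PRO, 101 ± 2.23 in DHA, 91.8 ± 1.58 in DHA + PRO, 91.8 ± 1.51 in PCA and 91.8 ± 6.44 in DHA + PCA, and the interval of the change with PRO ran from -13.6% to 2.81%. MMAA (chr4:146540540-146581187, plus strand), the GTPase that protects and loads the mutase, was read by few counts and ran from 1.55 to 5.81 CPM over all 36 samples. Its mean ± SD at 6 h was 2.98 ± 1.66 CPM in Ctrl, 3.74 ± 1.44 in PRO, 2.98 ± 0.713 in DHA, 3.78 ± 0.242 in DHA + PRO, 4.10 ± 0.221 in PCA and 3.83 ± 1.80 in DHA + PCA. At 24 h it was 3.52 ± 1.41 CPM in Ctrl, 3.57 ± 0.541 in PRO, 3.70 ± 1.01 in DHA, 3.34 ± 1.03 in DHA + PRO, 3.48 ± 1.04 in PCA and 3.44 ± 0.220 in DHA + PCA. The interval of its change with PRO at 24 h ran from -29.3% to 33.6%, and changes within it were not detectable at this depth. MMAB (chr12:109991521-110011358, minus strand), the adenosyltransferase, overlapped between PRO and Ctrl at both times, and the interval of its change in the combined comparison at 24 h ran from -12.5% to 7.80%.

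**Figure D3:**
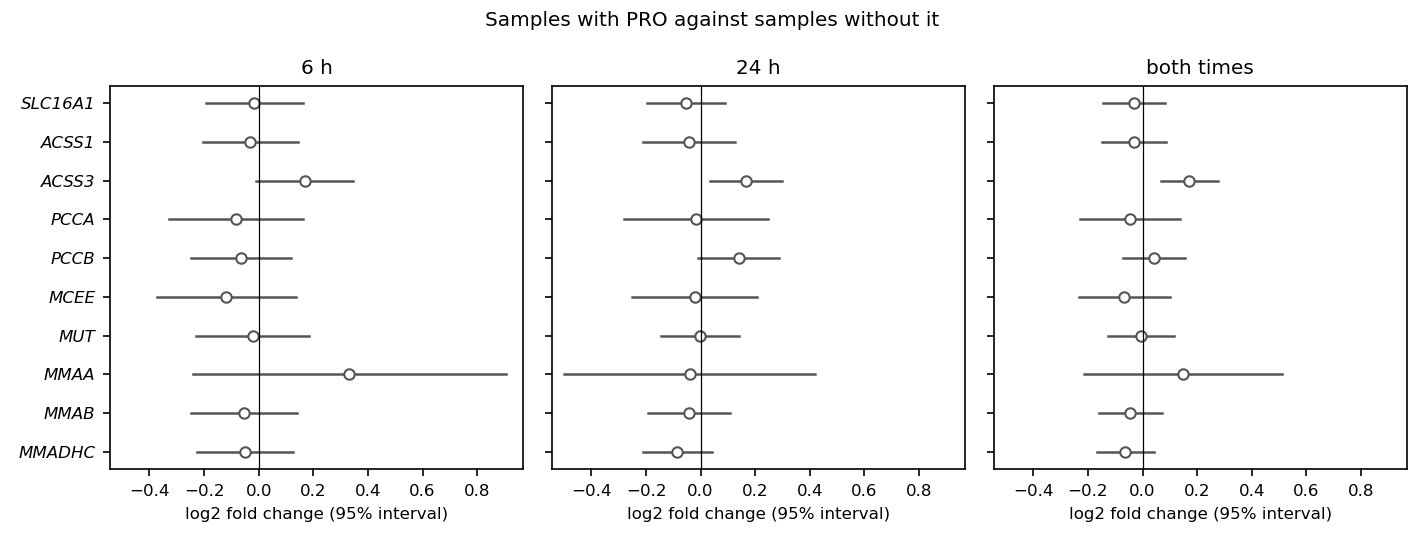
Log2 fold change of each gene in PRO and DHA + PRO against Ctrl and DHA at 6 h, at 24 h and over both times, with 95% intervals from edgeR, where open points did not pass the test. All 30 points are open, the interval of ACSS3 lies above 0 at 24 h and over both times, and MMAA has the widest intervals.

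The effect of PRO did not pass a test of difference between its settings for any of the genes. Between the effects of PRO with and without DHA, 0 of 10 genes passed at 6 h and 0 of 10 at 24 h (background 0% at both). An unadjusted p under 0.05 was found for 0 of 10, beside 217 of 11872 genes at 6 h and 595 of 11893 at 24 h. The effect of PRO at 24 h against that at 6 h gave 0 of 10 (background 0%). Here 0 of 10 had an unadjusted p under 0.05, beside 371 of 12046 genes. DESeq2's Wald test called 0 in all 3 comparisons of effects. The median log2 fold change with PRO at 24 h was -0.031 over the 10 genes and -0.0042 over all genes tested.

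With DHA, both synthetases changed at 24 h, in opposite directions. Whether the effects of DHA and PRO differ was not tested. The groups with DHA (DHA, DHA + PRO and DHA + PCA) were compared with those without it (Ctrl, PRO and PCA). At 24 h 2 of 10 genes passed, ACSS1 upward and ACSS3 downward, beside 1.23% of the 11893 genes tested. At 6 h 0 of 10 passed by edgeR, beside 0.202% of 11872 genes. Of the 10, MMAB alone had an unadjusted p under 0.05, beside 342 of all genes tested. MMAB was called by DESeq2's Wald test (adjusted p = 0.0499). Over both times together 3 of 10 passed, ACSS1 upward and ACSS3 and MMAB downward, beside 1.02% of 12046 genes.

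ACSS1 at 24 h was 61.9, 79.2 and 69.9 CPM in Ctrl, 55.6, 70.4 and 78.3 in PRO and 68.8, 78.7 and 75.2 in PCA. It was 86.9, 86.0 and 89.7 CPM in DHA, 84.9, 84.7 and 89.2 in DHA + PRO and 88.0, 80.1 and 99.9 in DHA + PCA. All 9 samples with DHA lay above all 9 without it. The log2 fold change was 0.31 (SE 0.067, 1.24-fold, adjusted p = 0.013 by edgeR), and within the SM18 and SM19 series it was 0.31 and 0.32. At 6 h the CPM of ACSS1 was between 37.1 and 47.2 without DHA and between 39.8 and 50.4 with it, with overlap, and the log2 fold change was 0.11 (SE 0.068, adjusted p = 0.9995 by edgeR). The difference of 0.19 between both times did not pass (unadjusted p = 0.0495, adjusted p = 0.99988 by edgeR).

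ACSS3 at 24 h was 75.8, 76.0 and 81.7 CPM in PCA and 70.2, 74.7 and 62.2 in DHA + PCA, beside the values of the other groups given above. Each DHA group lay below its counterpart without DHA, although the highest sample with DHA, at 76.8 CPM, exceeded the lowest without it, at 75.8 CPM. For ACSS3 the log2 fold change was -0.24 (SE 0.052, 0.848-fold, adjusted p = 0.0157 by edgeR), with -0.18 and -0.36 within the SM18 and SM19 series. At 6 h it was -0.10 (95% interval -0.24 to 0.045), with -0.0041 and -0.18 within the series. Without replicate 3 of DHA + PCA at 24 h the adjusted p of ACSS3 was 0.0514 by edgeR. Over both times the log2 fold change was -0.16 (SE 0.042, adjusted p = 0.0452 by edgeR), but this call was lost without the filter on low counts (adjusted p = 0.0887 by edgeR) and in 29 of 36 fits that each left out 1 sample. It stood only without replicate 2 of Ctrl, 1 of DHA, 3 of PRO, 1 of DHA + PRO or 1 of DHA + PCA at 6 h, or replicate 2 of PRO or 2 of DHA + PCA at 24 h, with adjusted p-values between 0.00764 and 0.107 across the 36 fits. Of all 11893 genes at 24 h, 75 (0.631%) had no overlap in the same direction in each of the 3 pairs of groups with and without DHA, and ACSS1 and ACSS3 were among them.

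**Figure D4:**
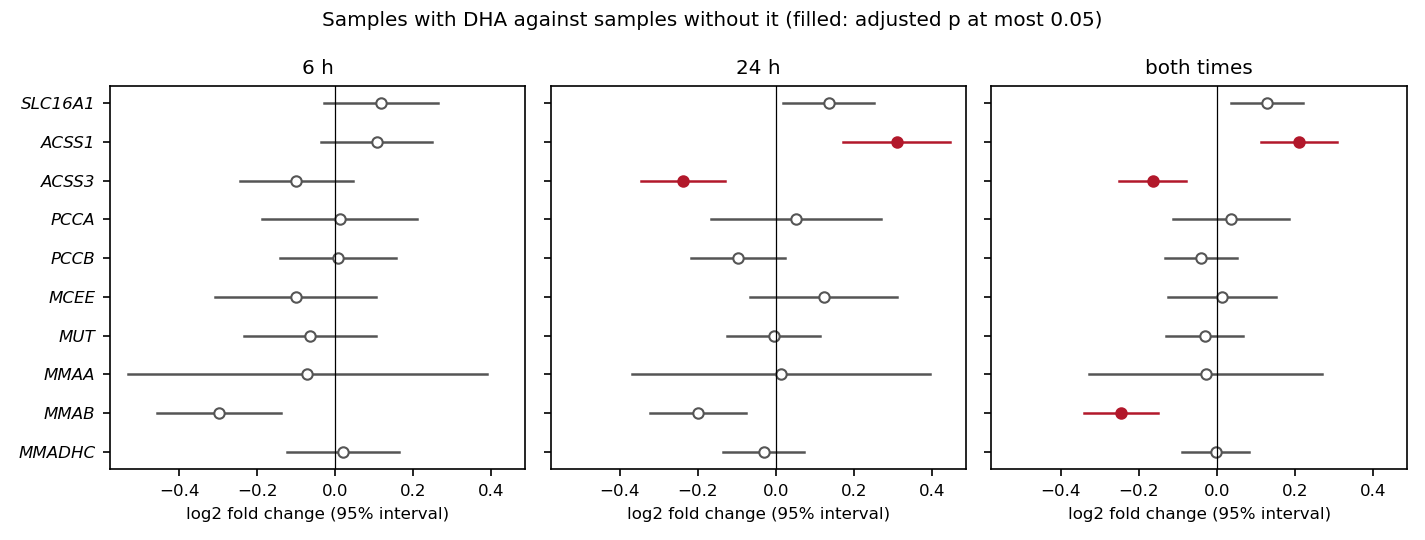
Log2 fold change of each gene in the groups with DHA against those without it at 6 h, at 24 h and over both times, with 95% intervals from edgeR and filled points for genes that passed. ACSS1 is filled to the right of 0 and ACSS3 to the left at 24 h and over both times, and MMAB is filled to the left over both times.

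MMAB at 6 h was 40.8, 45.1 and 39.5 CPM in Ctrl, 41.6, 39.8 and 42.6 in PRO and 47.7, 41.5 and 40.9 in PCA. It was 41.5, 35.4 and 28.3 CPM in DHA, 30.8, 33.2 and 36.4 in DHA + PRO and 32.8, 35.8 and 36.3 in DHA + PCA. DHA overlapped Ctrl through its replicate 1, and the other pairs did not overlap. At 24 h MMAB was 50.2, 59.8 and 66.1 CPM in Ctrl, 58.6, 56.5 and 66.3 in PRO and 71.7, 63.0 and 69.4 in PCA. With DHA at 24 h it was 55.5, 51.8 and 55.8 CPM in DHA, 48.6, 50.6 and 51.5 in DHA + PRO and 58.3, 56.4 and 60.0 in DHA + PCA, where Ctrl and DHA overlapped. With DHA the log2 fold change was -0.30 at 6 h (SE 0.076, adjusted p = 0.244 by edgeR) and -0.20 at 24 h (SE 0.060, adjusted p = 0.122 by edgeR). Without replicate 1 of Ctrl at 24 h, its lowest Ctrl sample there, the adjusted p at 24 h was 0.0437 by edgeR. With the replicate number added to the model it was 0.0343 by edgeR. Over both times the log2 fold change of MMAB was -0.25 (SE 0.047, adjusted p = 0.00143 by edgeR). Within the SM18 and SM19 series it was -0.31 and -0.31 at 6 h, and -0.16 and -0.27 at 24 h.

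MVK (chr12:110011500-110035075, plus strand), the neighbour of MMAB across the stretch printed above, fell with DHA as well. Its mean ± SD at 6 h was 64.6 ± 10.2 CPM in Ctrl, 69.5 ± 8.06 in PRO, 47.9 ± 1.04 in DHA, 45.1 ± 12.0 in DHA + PRO, 71.9 ± 10.5 in PCA and 47.0 ± 9.40 in DHA + PCA. At 24 h it was 119 ± 5.38 CPM in Ctrl, 95.3 ± 9.37 in PRO, 93.4 ± 2.11 in DHA, 85.7 ± 4.23 in DHA + PRO, 129.7 ± 18.6 in PCA and 87.3 ± 13.1 in DHA + PCA. The log2 fold change of MVK with DHA was -0.57 at 6 h (SE 0.11, adjusted p = 0.0261 by edgeR), -0.35 at 24 h (SE 0.065, adjusted p = 0.00262 by edgeR) and -0.46 over both times (adjusted p = 6.88e-06 by edgeR). Of the 12045 other genes tested, MVK was the one whose log2 CPM followed that of MMAB most closely over the 36 samples once the mean of each time was removed, with a Pearson correlation of 0.74. MVD, of the same pathway, came second with 0.73. These correlations describe samples that share treatments and cultures. PRO against Ctrl at 24 h gave a log2 fold change of -0.32 for MVK (95% interval -0.56 to -0.092, adjusted p = 0.782 by edgeR) and 0.031 for MMAB (95% interval -0.18 to 0.24), and neither passed.

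**Figure D5:**
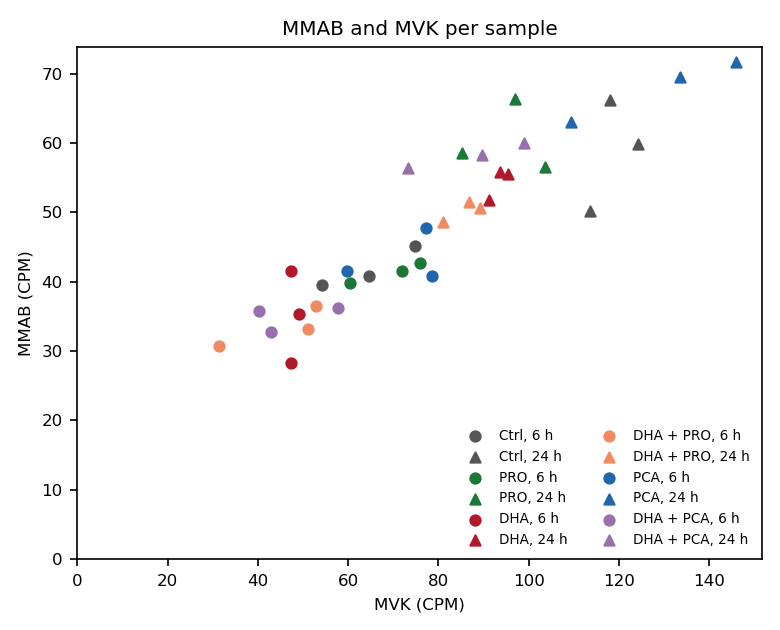
CPM of MMAB against CPM of MVK in each of the 36 samples, coloured by treatment, with circles for 6 h, triangles for 24 h and both axes starting at 0. Samples at 24 h lie above those at 6 h and mostly to the right of them, with some overlap in MVK. At each time most samples with DHA lie at the lower left.

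The other genes of the route did not pass with DHA. SLC16A1 had a log2 fold change of 0.13 at 24 h (SE 0.056, adjusted p = 0.379 by edgeR) and 0.13 over both times (adjusted p = 0.268 by edgeR), with overlap in each pair of groups at 24 h. At 24 h the 95% intervals were -0.17 to 0.27 for PCCA, -0.22 to 0.024 for PCCB, -0.067 to 0.31 for MCEE, -0.12 to 0.11 for MUT, -0.37 to 0.39 for MMAA and -0.14 to 0.071 for MMADHC. The median log2 fold change over the 10 genes at 24 h was 0.0030, beside 0.0070 over all genes tested. The effect of DHA at 24 h against that at 6 h gave 0 of 10 (background 0%), and 0 of 10 by DESeq2's Wald test. Of the 10, ACSS1 alone had an unadjusted p under 0.05 there, beside 368 of 12046 genes.

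Single DHA groups of 3 samples gave no call in the route. At 6 h 0 of 10 genes passed in DHA against Ctrl (background 0.0168%), in DHA + PRO against Ctrl (0.0168%) and in DHA + PCA against Ctrl (0.0168%). At 24 h 0 of 10 passed in DHA (background 0.193%), DHA + PRO (0.395%) and DHA + PCA (0.286%), each against Ctrl. DESeq2's Wald test called 0 of 10 in all 6. At an unadjusted p under 0.05, MMAB was the 1 gene at 6 h, in DHA + PRO, beside 264 of all 11872 genes tested. At 24 h there were 2 genes in each, ACSS1 with ACSS3 in DHA and in DHA + PCA, and ACSS1 with MMAB in DHA + PRO. Of all 11893 genes tested at 24 h, 708 lay under this limit in DHA, 952 in DHA + PRO and 887 in DHA + PCA. These 3 comparisons share the Ctrl samples. The log2 fold change of ACSS1 at 24 h was 0.32 in DHA, 0.29 when PRO was added and 0.35 when PCA was added (SE 0.12, 0.11 and 0.12). That of ACSS3 was -0.30, -0.10 and -0.19 in the same order (SE 0.091, 0.089 and 0.091).

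PCA, a phenolic acid, gave 0 of 10 genes past the test at 6 h and 0 of 10 at 24 h (background 0% at both), by edgeR and by DESeq2's Wald test. At an unadjusted p under 0.05 lay 86 of all 11872 genes tested at 6 h and 454 of 11893 at 24 h. Of the route there were 0 genes at 6 h and 2 at 24 h. These were MCEE, at 19.04, 19.5 and 17.7 CPM against 28.9, 22.8 and 20.1 in Ctrl (log2 fold change -0.34, adjusted p = 0.991 by edgeR), and MMAB, whose samples overlapped Ctrl (log2 fold change 0.21, adjusted p = 0.991 by edgeR).

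Between 6 h and 24 h ACSS1 and MMAB rose over all treatments. Over all 6 treatments, 24 h against 6 h changed 61% of the 12046 genes tested, and 3 of 10 genes of the route passed, all upward. ACSS1 rose by 0.90 on the log2 scale (SE 0.048, 1.87-fold, adjusted p = 1.59e-17 by edgeR), with no overlap between the highest sample at 6 h, at 50.4 CPM, and the lowest at 24 h, at 55.6 CPM. MMAB rose by 0.61 (SE 0.047, 1.52-fold, adjusted p = 2.77e-13 by edgeR), from 28.3 to 47.7 CPM at 6 h to 48.6 to 71.7 CPM at 24 h, again without overlap. How many of all genes were without overlap between the times was not counted. PCCB rose by 0.10 (SE 0.045, adjusted p = 0.048 by edgeR), a call that was lost without the filter on low counts (adjusted p = 0.122 by edgeR), with the deepest sample thinned (0.0744) and in 26 of 36 fits without 1 sample. It stood without replicate 1 of any of DHA, PRO, PCA and DHA + PCA or 3 of Ctrl at 6 h, or replicate 1 of Ctrl, DHA, PCA or DHA + PCA or 2 of DHA + PRO at 24 h. In Ctrl alone 2 of 10 passed, beside 26% of all genes, ACSS1 with 0.77 and MMAB with 0.49. In PRO alone the same genes passed, 2 of 10 beside 14.1% of all genes, with 0.80 and 0.55. MVK rose by 0.83 over all treatments (adjusted p = 1.98e-13 by edgeR). Within the SM18 and SM19 series the change with time was 0.87 and 0.95 for ACSS1, and 0.56 and 0.73 for MMAB. The samples of both times were kept in serum-free medium, and whether they came from the same culture experiments is not stated in the labels. In the groups given a compound, time with it and time without serum cannot be told apart. Ctrl cells received vehicle only, and ACSS1 and MMAB rose in them as well.

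The surroundings of the route were read from 62 genes in 7 lists, of which 48 passed the filter on low counts at 6 h, and 49 at 24 h and over both times. With PRO, 0 of them passed at 6 h (background 0%), at 24 h (0.00841%) or over both times (0%). With DHA at 24 h, where 1.23% of all genes passed, 0 rose and 2 fell. They were ACSS2, the cytosolic and nuclear acetyl-CoA synthetase, with a log2 fold change of -0.76 (SE 0.048, adjusted p = 1.84e-10 by edgeR), and the biotin enzyme ACACA of fatty acid synthesis with -0.38 (SE 0.049, adjusted p = 2.53e-05 by edgeR). ACSS2 fell like ACSS3, and ACSS1 rose. At 6 h with DHA 0 of 48 passed (background 0.202%). Over both times with DHA, where 1.02% of all genes passed, 1 rose and 2 fell. The riser was SLC25A20, the mitochondrial acylcarnitine carrier, named after its value was seen, with 0.27 (adjusted p = 0.0233 by edgeR).

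Of the monocarboxylate carriers and chaperones 3 of 8 were tested, and BSG, the chaperone of MCT1, was the highest with 508 RPKM and a log2 fold change with PRO at 24 h of -0.043 (SE 0.076). SLC16A3, which encodes the lactate exporter MCT4 and is named after its value was seen, had 197 RPKM and rose with time by 0.81 on the log2 scale (adjusted p = 2.87e-11 by edgeR), while SLC16A1 did not pass. The sodium-coupled carriers SLC5A8 and SLC5A12 had totals of 2 and 0 counts over the 36 samples. Among the cobalamin genes CD320, the receptor for cobalamin bound to transcobalamin, was the highest with 89.7 RPKM, and its change with time was -0.49 (adjusted p = 2.21e-07 by edgeR). Of the 14 enzymes that yield propionyl-CoA from amino acids and odd-chain or branched acids, 0 passed with PRO or DHA, and ECHS1, the highest with 101 RPKM, had 0.15 with DHA at 24 h (adjusted p = 0.272 by edgeR). Downstream, SUCLG1, a succinyl-CoA synthetase subunit with 63.4 RPKM, rose with time by 0.16 (adjusted p = 0.000907 by edgeR). Of the receptors for short-chain fatty acids 0 of 4 were tested. FFAR3 had 0 counts in all 36 samples, FFAR2 at most 3, OR51E2 at most 4 and HCAR2 at most 32 in a sample. Over the 49 genes tested for time, 19 rose and 11 fell, where 61% of all genes passed.

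Within the route the genes did not move as 1 block. After removal of the mean of each time, the Pearson correlation of log2 CPM over 36 samples was highest for PCCA and MMADHC, with 0.57, and lowest for SLC16A1 and MMAB, with -0.62. PCCA and PCCB, whose products form 1 enzyme, had 0.12, and ACSS1 and ACSS3 had -0.48. The genes closest to ACSS3 over all samples were ELOVL6 (0.80), SCD (0.75) and TMEM97 (0.74), and those closest to ACSS1 were AKR1C1 (0.79), AKR1B10 (0.78) and AKR1C2 (0.77). SLC16A1 was closest to ACVR2B (0.77), MUT to CALD1 (0.86), MMADHC to IST1 (0.79), PCCB to CLIC1 (0.73), MCEE to ALG5 (0.69), PCCA to EIF3J (0.69) and MMAA to TTC19 (0.68). These values describe 36 samples that share treatments, cultures and depth, and each is the highest or lowest of many.

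Of the other genes that start within 1 kb of a member or overlap it, none but MVK passed with PRO or DHA in the combined comparisons. MPHOSPH10 starts 49 bases from MCEE, and CENPQ starts 54 bases from MUT on the other strand. GGACT overlaps the end of PCCA and had a median of 3.0 CPM. With time GGACT rose by 1.01 on the log2 scale and CENPQ fell by 0.18, while PCCA and MUT did not pass.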

How the data were processed

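RNA-seq was made from 36 samples of HepG2 cells in 12 groups of 3, with TruSeq RNA v2 libraries sequenced on a HiSeq1500. The deposited values were raw counts of reads per RefSeq gene, which the authors obtained by STAR alignment to hg19 (per the labels and the study's methods, STAR version not given in the sources used here) and counting with iRNA-seq. The deposited counts came with gene start, end and counted length.

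Counts were tested with edgeR 4.0.16 (TMM normalization, filterByExpr, quasi-likelihood F test) in R 4.3.3, in 1 fit of the 18 samples of each time and 1 fit of all 36, over 11872, 11893 and 12046 genes. A gene was called at a Benjamini-Hochberg adjusted p of at most 0.05 with an average log2 CPM above 0. Intervals are 95%. Single genes were also tested by exact permutation of log2 CPM (prior count 2) within pairs of groups, where 3 against 3 samples cannot go below p = 0.1. Levels are RPKM by counted length. Samples were grouped by the treatment and time in the labels, and replicates are separate cultures. The groups were tested as unpaired, although same-numbered samples may share a culture experiment. No value column was left unmatched. Of 630 pairs of samples, the least different had a chi-square of 1.90 per degree of freedom, so no sample was counted as a duplicate. Total counts were 4659744 to 42326734, and intervals cover the spread between samples. The scripts were tested on simulated data.

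The genes and the 7 lists of related genes were chosen with earlier results of these data known. Named were all 10 genes with their values in every group, their neighbours, the genes of a list that passed with DHA and the highest of each list, and for each gene those most alike in log2 CPM over the 36 samples. Differences within the library series and the shorter motif were added after the data were seen. Sequence was read from hg19 at the table's coordinates. Alternatives tried were DESeq2 1.42.0 size factors and its Wald test, no filter, a replicate block, the library series as a factor, only the groups compared, the deepest sample thinned, RPKM by gene span, and leaving out each sample.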

Additional observations from a re-analysis of the deposited data

How the results depend on the processing

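Of 166 values of the number of genes called under another normalization, test, filter, design or depth, 164 stayed within 1.5 times. The exceptions were 5 genes with time over all treatments under the replicate block (PCCB, ACSS1, ACSS3, MCEE and MMAB, against 3) and 1 gene with DHA at 6 h under DESeq2's Wald test (MMAB, against 0). Leaving out 1 sample gave 1 to 3 genes with DHA at 24 h, 2 to 3 with DHA over both times and 2 to 4 with time (to which ACSS3 was added without replicate 2 of Ctrl, 2 or 3 of DHA + PRO or 2 or 3 of DHA + PCA at 6 h, or 2 of DHA or of DHA + PCA at 24 h, MCEE without 1 of DHA, 2 of PCA or 3 of DHA + PRO at 6 h, or 3 of Ctrl or DHA or 1 of DHA + PCA at 24 h, MMADHC without 2 of Ctrl or DHA at 6 h, and MUT without 1 of DHA + PRO at 6 h), and kept 0 in every PRO, PCA and single DHA comparison. Of 470 values for single genes, 456 kept direction and call, 3 lost a call and 6 gained one. Lost were ACSS3 with DHA over both times and PCCB with time without the filter, and PCCB with the deepest sample thinned. Gained were MMAB with DHA at 24 h under the replicate block (adjusted p = 0.0343 by edgeR) and at 6 h by the Wald test, and with time ACSS3 (block and thinned) and MCEE (block and library series). The direction of values that did not pass turned for MUT with PRO at 24 h without the filter (0.00014) and thinned (0.011), with the library series as a factor for MUT with PRO at 6 h (0.0026) and over both times (0.0059), and for MMAA with time under the block (0.0022). The cause was not tested. Over 1560 values with 1 sample left out, 1372 kept direction and call, and directions of uncalled log2 fold changes turned with PRO at 6 h for ACSS1 (-0.068 to 0.016), MMAB (-0.11 to 0.015), MMADHC (-0.10 to 0.0083), MUT (-0.13 to 0.043), PCCA (-0.14 to 0.0027), PCCB (-0.11 to 0.0054) and SLC16A1 (-0.11 to 0.032), with PRO at 24 h for ACSS1 (-0.094 to 0.028), MCEE (-0.073 to 0.055), MMAA (-0.18 to 0.081), MMAB (-0.091 to 0.012), MUT (-0.029 to 0.032) and PCCA (-0.079 to 0.10), with PRO over both times for ACSS1 (-0.059 to 0.00085), MUT (-0.066 to 0.026) and PCCA (-0.078 to 0.0089), with DHA at 6 h for MMAA (-0.22 to 0.11), MMADHC (-0.015 to 0.056), PCCA (-0.038 to 0.069) and PCCB (-0.036 to 0.042), with DHA at 24 h for MMAA (-0.087 to 0.10), MUT (-0.033 to 0.015) and PCCA (-0.022 to 0.094), with DHA over both times for MCEE (-0.013 to 0.041), MMAA (-0.10 to 0.060), MMADHC (-0.022 to 0.017) and PCCA (-0.0042 to 0.065) and with time for MMAA (-0.069 to 0.065). Levels divided by gene span in place of counted length moved for all 10 genes, to between 0.047 and 5.41 RPKM, and changed their order. PCCA (0.047) then lay below MMAA (0.087), and MMAB (2.44) and MUT (1.79) lay above PCCB (0.788).

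Same-numbered samples deviated together with a correlation over 0.1 in 36 of 45 pairs of groups at 6 h and 34 of 45 at 24 h (means 0.256 and 0.153), and 15 of 18 samples at each time correlated best with their own number. The column labels carry the same 3 sets of numbers for the pooled replicates in every group at both times, and the study describes 3 independent cultures. Together these hint that a number marks a shared experiment, although the labels do not state it. The tests reported have no replicate block and leave this possible pairing out. Under the replicate block the number of all genes called was 64 against 24 with DHA at 6 h, 367 against 146 at 24 h and 340 against 123 over both times, and 20 against 1 with PRO at 24 h and 3 against 0 over both times, and ACSS3 with PRO over both times had an adjusted p of 0.228 by edgeR. The block gave 18, 13 and 11 genes against 2 each for DHA, DHA + PRO and DHA + PCA against Ctrl at 6 h and 77, 135 and 130 against 23, 47 and 34 at 24 h, 1 against 0 for DHA + PRO against DHA at 24 h, 3 and 20 against 0 for the effects of PRO and DHA by time, and 2896 against 1694 for time in PRO. The Wald test gave 45, 10, 11 and 7 genes with DHA at 6 h, pooled and in the same 3 groups, 222 pooled, 46 in DHA and 55 in DHA + PCA at 24 h, 5 with PRO at 24 h, 1 in PRO against Ctrl and 8 in DHA + PRO against DHA at 24 h, 2 with PRO over both times and 6 for DHA by time. The library series as a factor gave 46, 8, 10 and 8 genes with DHA at 6 h, 53 in DHA + PCA at 24 h, 2 with PRO over both times (as with the deepest sample thinned) and 3 for DHA by time. Without the filter there were 5 and 7 genes in DHA and DHA + PRO at 6 h, 49, 79 and 74 in the 3 DHA groups at 24 h, 10 in PRO against Ctrl and 2 with PRO at 24 h, 6 for PRO by DHA and 2 for DHA by time. Fits of only the groups compared gave 0 in DHA and in DHA + PRO at 6 h, 79 in DHA + PRO and 61 in DHA + PCA at 24 h, 0 with PRO at 24 h and 881 for time in PRO. With 3 cultures a group, changes of the genes of the route inside the intervals given are not excluded, and the counts of MMAA set the widest of these intervals.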
